A study of Rattus norvegicus with 6 samples.

Results

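The genes of mitochondrial complex II were read in RNA-seq of adult rat hippocampal NSCs (the cloned line HCN) after a *Derl1* knockdown. Complex II is succinate dehydrogenase. The 8 genes named are those for its 4 subunits (*Sdha*, *Sdhb*, *Sdhc* and *Sdhd*) and its 4 assembly factors (*Sdhaf1*, *Sdhaf2*, *Sdhaf3* and *Sdhaf4*). In the 17315 rows of the deposited tables, 6 of them have a row under their symbol. *Sdhaf1* was found as a row named RGD1562079, through its RefSeq identifier NM_001177687, which made 7 genes. The expression of *Sdhaf4* was not analysed here. The group of genes was chosen by the lower value of *Sdhaf3* in siDerl1 NSCs, so the difference of *Sdhaf3* between the groups is given as a description with no test. The other genes belong by function.

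The study asked which transcripts differ when NSCs with less Derlin-1, an ER protein of the degradation pathway for misfolded proteins, are made quiescent. NSCs were transfected with a control Stealth siRNA duplex (siControl, samples 1 to 3) or with a duplex against *Derl1* (siDerl1, samples 1 to 3), kept for 2 days in proliferation medium with bFGF and then cultured for 2 days with BMP4 and bFGF. BMP4 brings these cells to a quiescent state. All 6 samples thus had siRNA transfection and BMP4. Each group rests on 1 duplex and on cells of 1 cloned line, and nothing in the labels says whether the 3 samples of a group were separate cultures, so the p-values measure the spread between these samples, which may be technical.

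Succinate dehydrogenase sits in the inner mitochondrial membrane and belongs both to the tricarboxylic acid (TCA) cycle and to the respiratory chain. It oxidises succinate to fumarate and hands the electrons to ubiquinone. The flavoprotein Sdha binds succinate and carries FAD, Sdhb carries the iron-sulfur clusters, and Sdhc and Sdhd anchor the enzyme in the membrane and hold the ubiquinone site. All subunits are encoded in the nucleus. Sdhaf2 is needed for the attachment of FAD to Sdha, Sdhaf4 binds Sdha that has received its FAD, and Sdhaf1 and Sdhaf3, both small proteins of the LYR motif family, act on the maturation of Sdhb.

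The 5′ ends of 4 of these genes are shown because their transcripts behaved differently: *Sdhaf3* differed most between the groups, *Sdhc* and *Sdhb* had groups that did not overlap, in opposite directions, and *Sdha* hardly varied. Each sequence runs 5′ to 3′ on the gene's strand, from 250 bases before to 50 bases after the start site, in the RefSeq assembly GRCr8. The reads were mapped to another build, rn6. Capitals mark matches, on either strand, to GCGCANGCG, a core of the site of NRF1 (a factor known for nuclear genes of the respiratory chain), or to CCGGAAG, a core of the ETS family.
*Sdhaf3* (chr4:36066713-36067012, plus strand): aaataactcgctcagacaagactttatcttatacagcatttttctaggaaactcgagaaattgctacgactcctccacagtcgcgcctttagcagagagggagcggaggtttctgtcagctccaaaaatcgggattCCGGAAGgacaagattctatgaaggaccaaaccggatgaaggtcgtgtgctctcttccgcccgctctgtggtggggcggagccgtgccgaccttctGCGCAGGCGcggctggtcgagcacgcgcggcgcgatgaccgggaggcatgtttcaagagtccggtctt
*Sdhc* (chr13:86097976-86098275, minus strand): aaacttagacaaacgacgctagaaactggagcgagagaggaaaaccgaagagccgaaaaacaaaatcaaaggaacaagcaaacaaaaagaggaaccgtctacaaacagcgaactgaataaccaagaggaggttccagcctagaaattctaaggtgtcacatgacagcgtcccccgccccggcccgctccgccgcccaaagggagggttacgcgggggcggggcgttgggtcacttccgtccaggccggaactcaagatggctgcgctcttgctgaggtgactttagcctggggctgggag
*Sdhb* (chr5:158547684-158547983, plus strand): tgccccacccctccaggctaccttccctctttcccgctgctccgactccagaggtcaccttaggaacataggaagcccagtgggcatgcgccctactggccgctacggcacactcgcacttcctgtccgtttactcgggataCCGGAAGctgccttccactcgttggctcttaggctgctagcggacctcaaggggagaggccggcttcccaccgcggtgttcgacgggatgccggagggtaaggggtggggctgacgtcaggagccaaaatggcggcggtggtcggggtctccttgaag
*Sdha* (chr1:30764303-30764602, plus strand): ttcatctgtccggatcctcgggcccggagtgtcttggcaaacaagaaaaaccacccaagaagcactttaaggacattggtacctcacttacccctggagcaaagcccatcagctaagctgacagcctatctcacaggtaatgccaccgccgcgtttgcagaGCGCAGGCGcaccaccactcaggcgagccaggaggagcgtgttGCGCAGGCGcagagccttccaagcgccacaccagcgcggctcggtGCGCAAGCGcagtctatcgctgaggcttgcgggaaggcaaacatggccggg
The *Sdhaf3* window holds 1 match to each motif, which do not overlap, and the *Sdha* window holds 3 matches to the NRF1 core. In the *Sdhb* window there is 1 match to the ETS core, and in the *Sdhc* window neither string is present. Over the 8 genes, all of which have a promoter in the RefSeq table, 3 hold the NRF1 core (*Sdha*, *Sdhaf3* and *Sdhaf4*) and 5 hold the ETS core (*Sdhb*, *Sdhd*, *Sdhaf1*, *Sdhaf2* and *Sdhaf3*). Of the 33469 promoters of the same length in that table, 5.80% hold the first, 8.75% the second and 1.18% both. The median share of G and C over those promoters was 51.7%, while in the 8 windows it lay between 55.3% and 72.3%. Both motifs are rich in G and C, and what this adds to the matches was not tested. These are matches of letters only. The motif choice was made after the expression values were known.

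The expression values are TPM, an abundance corrected for transcript length, so that levels can be compared between genes. Their sequencing depth is unknown. From 11641 to 11808 genes were detected in a sample. Differences between groups were computed on log2(TPM + 1) with limma over the 10331 genes whose mean reached 1 TPM, and the 7 complex II genes all passed that filter with a mean above 1 TPM in each group. *Derl1* itself (NM_001014202) was at 122, 132 and 128 TPM in siControl samples 1, 2 and 3 and at 44.9, 70.8 and 74.0 TPM in siDerl1 samples 1, 2 and 3, and the groups did not overlap. Its log2 difference of −1.03 (standard error 0.18) had an adjusted p of 0.497 from limma and of 0.00884 with the sample number as a replicate block, but with that block the adjusted p was 0.229 without the intensity trend of the fit and 0.104 without the filter on low values, so its call depended on all 3 settings. The samples numbered 1 stood apart from the other 4 in both groups, along the first principal component (55.7% of the variance). The 5 neural stem cell markers were all expressed, with *Sox2* between 445 and 565 TPM and *Nes* at 137, 125 and 113 TPM in siControl and at 111, 101 and 99.4 TPM in siDerl1 samples 1, 2 and 3. The *Nes* groups did not overlap, while the summed list, of which *Vim* made up the largest part, overlapped between the groups. Of the oligodendrocyte markers, *Mbp* was between 245 and 340 TPM and *Sox10* between 541 and 787 TPM, while *Mog* was listed at 0 in all samples. Of the mature astrocyte markers, *S100b* was between 445 and 708 TPM, while *Aqp4* was at 0.20 TPM or less and *Aldh1l1* at 0.13 TPM or less. *Gfap* was at 47.0, 27.7 and 28.9 TPM in siControl and at 66.3, 47.5 and 45.3 TPM in siDerl1 samples 1, 2 and 3, higher in the siDerl1 sample of every pair with groups that overlapped. The microglia marker *Cx3cr1* and the endothelial marker *Cldn5* were also listed at 0 in all 6 samples, while *P2ry12*, another microglia marker, was between 3.48 and 5.41 TPM. Summed over a list, 2 sets of markers had groups that did not overlap. Among single genes tested, the groups were apart for 8.52% with siDerl1 lower and for 5.09% with siDerl1 higher. Such separations, that of *Nes* included, are thus common in these data. The 5 neuron markers summed to between 57.2 and 64.7 TPM in siControl and between 42.0 and 54.8 TPM in siDerl1 NSCs, with 2 of the 5 at a mean of 1 TPM or more. *Syt1*, between 33.2 and 53.6 TPM over the 6 samples, made up the largest part of the neuron sum. The 4 fibroblast and vessel markers summed to between 1.04 and 1.92 TPM in siControl and between 2.63 and 3.40 TPM in siDerl1 NSCs. Only 1 of these 4 reached a mean of 1 TPM, so this sum lies near the floor. The part of these sums, of *Nes* and of *Gfap* in the results on complex II was not tested. The sums of the other sets overlapped between the groups. Cells with less of a transcript and fewer cells that hold it cannot be told apart in such bulk samples.

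The subunit transcripts were abundant and kept 1 order in every sample. Per length, *Sdhb* was highest, with 337 ± 3.65 TPM (SD, n = 3) in siControl and 349 ± 6.57 TPM (SD, n = 3) in siDerl1 NSCs. *Sdhd* followed, then *Sdhc* and *Sdha*. The assembly factors came below all 4 subunits, in the order *Sdhaf1*, *Sdhaf2* and *Sdhaf3*. In each of the 6 neighbouring pairs of this order, the higher gene was above the lower one in 6 of 6 samples. The closest neighbours were *Sdhc* and *Sdha*, with a ratio between 1.05 and 1.18, and even there the lowest *Sdhc* value (182 TPM) lay above the highest *Sdha* value (177 TPM). The widest gap was that from *Sdhaf2* to *Sdhaf3*, with a ratio between 5.08 in a siControl sample and 19.4 in a siDerl1 sample.

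**Figure D1:**
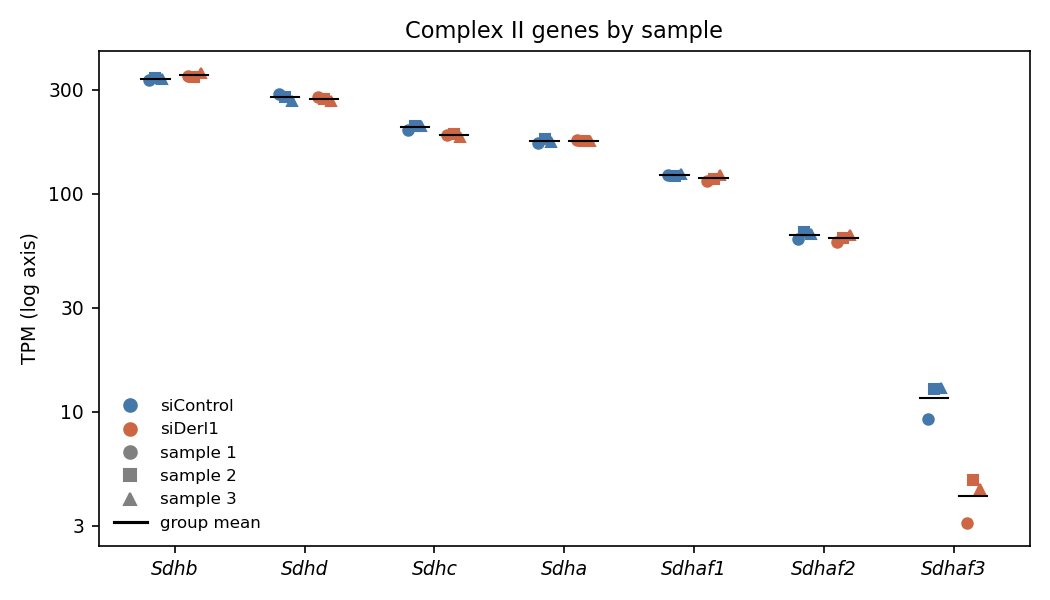
TPM of the 7 complex II genes in each sample, on a log axis, with genes ordered by their mean over the 6 samples. Blue points are siControl and orange points siDerl1 samples, marker shapes give the sample number, and black lines are group means (n = 3). Points of 6 genes nearly coincide between the groups, while *Sdhaf3* lies at 9.30 to 12.8 TPM in siControl and at 3.09 to 4.86 TPM in siDerl1 samples.

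*Sdhaf3*, the assembly factor for Sdhb, was the member by which the group of genes was selected. It was at 9.30, 12.7 and 12.8 TPM in siControl samples 1, 2 and 3. In siDerl1 samples 1, 2 and 3 it was at 3.09, 4.86 and 4.45 TPM. The groups did not overlap, and the highest siDerl1 value was under the lowest siControl value. The means were 11.6 ± 2.01 TPM (SD, n = 3) and 4.13 ± 0.927 TPM (SD, n = 3), a ratio of 0.356. On the log2(TPM + 1) scale the difference, siDerl1 minus siControl, was −1.30. Of the 10331 genes tested, 4 had a more negative difference. The row carries the identifier NM_001047914, which is not among the current RefSeq transcripts of the gene, so the transcript model behind its TPM may not be the one whose start site is shown above.

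Samples of the same number were compared as pairs, a matching that was not set against other matchings. *Sdhaf3* in the siDerl1 sample was at 33.2%, 38.2% and 34.7% of the siControl sample in pairs 1, 2 and 3. *Derl1* was at 36.9%, 53.7% and 58.0% in the same pairs. The pairs were not in the same order for the 2 genes. As log2(TPM + 1) differences, *Sdhaf3* was at −1.33, −1.23 and −1.34 and *Derl1* at −1.42, −0.89 and −0.78 in pairs 1, 2 and 3. Within the groups, *Sdhaf3* also differed by sample number, which was not tested. Sample 1 was below samples 2 and 3 by 0.42 on the log2 scale in siControl and by 0.47 in siDerl1 NSCs, while none of the other 6 genes differed between sample 1 and samples 2 and 3 by more than 0.09 in either group. Those 6 genes are at much higher levels than *Sdhaf3*, and the samples numbered 1 stood apart over all genes as well.

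**Figure D2:**
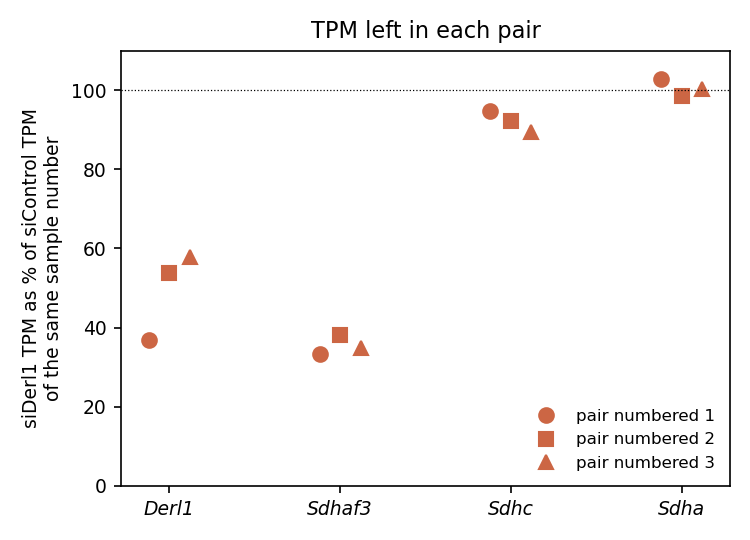
TPM in the siDerl1 sample as a percentage of the TPM in the siControl sample of the same number, for *Derl1*, *Sdhaf3*, *Sdhc* and *Sdha*, 1 point per pair. The dotted line marks equal TPM. *Sdhaf3* lies between 33.2% and 38.2%, *Derl1* between 36.9% and 58.0%, *Sdhc* between 89.5% and 94.8%, and *Sdha* between 98.5% and 103%.

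None of the other 6 genes passed the test. Their adjusted p values from limma lay between 0.740 and 0.988, in a comparison that called 0 of the 10331 genes (0%) at an adjusted p under 0.05 and 692 of them (6.70%) at an unadjusted p under 0.05. With the replicate number as a block, 0.552% of the genes tested had an adjusted p under 0.05, and 0 of these 6 did. The mean was lower in siDerl1 NSCs for 4 of the 6, higher for *Sdhb*, and all but the same for *Sdha*. The 95% intervals of the differences lay between −15.2% and 12.1% of the siControl level over the 6 genes.

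*Sdha*, the catalytic flavoprotein and a common reference gene in quantitative PCR, was at 171, 177 and 173 TPM in siControl and at 176, 174 and 174 TPM in siDerl1 samples 1, 2 and 3. The difference was 0.01 on the log2 scale (standard error 0.05, adjusted p = 0.988 from limma), with a 95% interval from −0.11 to 0.13. Its coefficient of variation over the 6 samples was 1.25%, and 2 of the 10331 genes tested had a smaller one. The median over all genes tested was 10.8%, and 7.50% over the 3837 genes with a mean of at least 50 TPM, a level that all complex II genes but *Sdhaf3* reach.

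*Sdhb*, the iron-sulfur subunit and the partner on which Sdhaf3 acts, was at 333, 340 and 337 TPM in siControl samples 1, 2 and 3. In siDerl1 samples it was at 347, 343 and 356 TPM. All siDerl1 samples were above all siControl samples, by a small margin. The ratio of means was 1.04, and the log2 difference was 0.05 (standard error 0.05, adjusted p = 0.891 from limma). It was the only 1 of the 6 whose groups were apart with siDerl1 higher, against 5.09% of the genes tested.

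*Sdhc*, the larger membrane anchor, went the other way. It was at 196, 204 and 204 TPM in siControl samples and at 186, 188 and 182 TPM in siDerl1 samples 1, 2 and 3, so the groups did not overlap. The means differed by −7.87%, with siDerl1 lower. The log2 difference was −0.12 (standard error 0.05, unadjusted p = 0.0555, adjusted p = 0.740 from limma). With the replicate block the unadjusted p was 0.0405 and the adjusted p from limma was 0.295. In pairs 1, 2 and 3 the siDerl1 sample was at 94.8%, 92.2% and 89.5% of the siControl sample. *Sdhc* was the only 1 of the 6 with groups apart and siDerl1 lower, a pattern shown by 8.52% of the genes tested. A count of 1 of 6 in each direction is too small to be read against these shares.

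*Sdhd*, the other membrane anchor, was at 287, 277 and 267 TPM in siControl and at 276, 270 and 264 TPM in siDerl1 samples 1, 2 and 3. The groups overlapped, and in every pair the siDerl1 sample was slightly lower, by at most 0.05 on the log2 scale. The log2 difference was −0.03 (standard error 0.05, adjusted p = 0.942 from limma). RefSeq lists a pseudogene each of *Sdhc*, *Sdhd* and *Sdhaf4*, none of which has a row of its own in the tables, so reads from such copies could be counted with the parent genes or lost, and values of *Sdhc* and *Sdhd* are uncertain to that extent.

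*Sdhaf1*, the LYR protein that acts with Sdhaf3 on Sdhb, was at 122, 120 and 124 TPM in siControl and at 115, 117 and 122 TPM in siDerl1 samples 1, 2 and 3, with overlapping groups. Its log2 difference was −0.05 (standard error 0.06, adjusted p = 0.923 from limma). *Sdhaf2*, the flavinylation factor, was at 62.2, 66.6 and 65.0 TPM in siControl and at 59.9, 62.9 and 64.7 TPM in siDerl1 samples. Its difference was also −0.05 (standard error 0.07, adjusted p = 0.934 from limma). In every pair both of these genes were slightly lower in the siDerl1 sample, by at most 0.08 on the log2 scale.

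**Figure D3:**
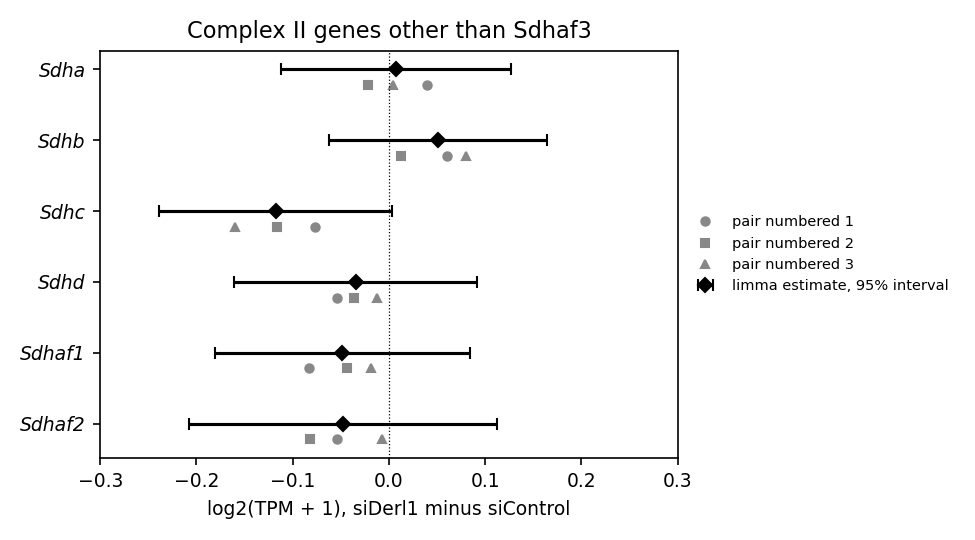
Difference in log2(TPM + 1), siDerl1 minus siControl, for the 6 complex II genes other than *Sdhaf3*. Diamonds are limma estimates with 95% intervals (n = 3 per group), and grey points are the 3 pairs of the same sample number. Every interval includes 0, and *Sdhc* lies farthest from it, at −0.12.

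Ratios within a sample do not depend on how the libraries were scaled. The 4 subunits summed to between 981 and 998 TPM in siControl and between 976 and 985 TPM in siDerl1 samples, a difference of means of −0.949%. *Sdhaf3* amounted to 0.943%, 1.28% and 1.31% of that sum in siControl samples 1, 2 and 3. It amounted to 0.314%, 0.498% and 0.456% in siDerl1 samples. *Sdhc* as a percentage of *Sdhb* was at 58.9%, 59.9% and 60.4% in siControl and at 53.6%, 54.7% and 51.2% in siDerl1 samples. This ratio was chosen after its values were seen and was not tested. Set against *Sdhd*, the other anchor, *Sdhc* was at 68.5%, 73.5% and 76.3% in siControl and at 67.4%, 69.5% and 68.9% in siDerl1 samples, and the groups overlapped. As a percentage of *Sdha*, *Sdhc* was at 115%, 115% and 118% in siControl and at 106%, 108% and 105% in siDerl1 samples. There the groups were apart, which was not tested either. *Sdhaf1* stood at 70.1% ± 1.90 (SD, n = 3) of *Sdha* in siControl and at 67.5% ± 2.46 (SD, n = 3) in siDerl1 NSCs, and *Sdhaf2* at 37.2% ± 0.679 and 35.8% ± 1.59, differences of about the size of the spread between samples.

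The genes around complex II were read from 7 lists. No gene of these lists passed the test, with 0 of 89 genes at an adjusted p under 0.05 with limma, 0 with the block, and 10 of 89 (11.2%) at an unadjusted p under 0.05, against 6.70% of all genes tested. The differences of the 89 genes lay between −0.61 and 0.41 on the log2 scale. Their median was −0.03, beside −0.02 for all genes tested.

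The TCA cycle list, the metabolic neighbours of the enzyme, had 14 genes, all tested. Of these, 4 had a positive difference, and the median was −0.06. *Dlst*, a subunit of the 2-oxoglutarate dehydrogenase complex, was at 122 ± 3.26 TPM (SD, n = 3) in siControl and 106 ± 8.10 TPM (SD, n = 3) in siDerl1 NSCs, without overlap (log2 difference −0.20, adjusted p = 0.704 from limma). *Cs*, citrate synthase, had a difference of −0.10 and *Idh3a*, a subunit of isocitrate dehydrogenase, of −0.11 (adjusted p = 0.773 and 0.782 from limma). *Dlst* and *Idh3a* were the 2 of 14 whose groups were apart, both with siDerl1 lower, beside 8.52% of all genes tested. Among the genes of succinate transport, sensing and side routes, 4 of 8 were expressed at a level that could be tested. *Abat*, of the GABA shunt that yields succinate, had a difference of 0.34, the mitochondrial dicarboxylate carrier *Slc25a10* of 0.14, and *Oxct1*, which uses succinyl-CoA to activate ketone bodies, of 0.02, all with overlapping groups. For *Abat* 1 sample stood out, siDerl1 sample 2, with 17.3 TPM beside 10.8 and 9.33 TPM in siDerl1 samples 1 and 3. For *Slc25a10* it was siDerl1 sample 1, with 224 TPM beside 170 and 173 TPM in siDerl1 samples 2 and 3. The succinate receptor gene *Sucnr1* had a mean under 1 TPM and was not tested.

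The supply of the cofactors was read from the lists for iron-sulfur clusters and for FAD. Of 17 iron-sulfur assembly genes tested, 6 had a positive difference, and the median was −0.04. *Nfu1*, which passes clusters on to their targets, was at 49.2, 47.6 and 51.2 TPM in siControl and at 58.0, 58.0 and 59.9 TPM in siDerl1 samples 1, 2 and 3, a difference of 0.25 with groups apart (adjusted p = 0.704 from limma). *Isca2* was at 77.6, 89.6 and 92.8 TPM in siControl and at 40.8, 51.5 and 85.0 TPM in siDerl1 samples, a difference of −0.61 (adjusted p = 0.723 from limma). Its groups overlapped because siDerl1 sample 3 lay within the siControl range. *Nfs1*, the cysteine desulfurase that provides the sulfur, had a difference of −0.16. In the list for riboflavin uptake and FAD supply, 4 of 5 genes were tested and their differences lay between −0.09 and −0.02. That range includes *Slc52a2*, *Rfk* and *Flad1*, which import riboflavin and turn it into FAD.

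The list of other dehydrogenases that reduce ubiquinone had 8 genes tested and a median of −0.01. *Prodh*, proline dehydrogenase, was at 12.5, 11.6 and 13.4 TPM in siControl and at 21.2, 13.6 and 16.2 TPM in siDerl1 samples 1, 2 and 3 (difference 0.40, adjusted p = 0.740 from limma), without overlap. For *Prodh* siDerl1 sample 1 stood highest, while siDerl1 sample 2 lay just above the siControl range. *Etfb*, a subunit of the electron transfer flavoprotein, and *Sqor*, which oxidises sulfide and has a row under its older symbol *Sqrdl*, had differences of 0.12 and 0.20 with overlapping groups.

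Genes of the protein family of *Sdhaf3* and other assembly factors had medians near that of all genes tested. Of 9 other LYR motif genes, 7 were tested, with differences between −0.21 for *Lyrm2* and 0.18 for *Lyrm1* and a median of −0.02. *Ndufb9*, a complex I subunit of the same family, had a difference of −0.06. *Lyrm2* and *Ndufb9* were the 2 of 7 whose groups were apart, with siDerl1 lower in both, beside 8.52% of all genes tested. Of 42 assembly factors of complexes I, III, IV and V, 35 were tested, with a median of −0.03 and 15 positive differences. *Coa5*, of complex IV assembly, was at 49.1 ± 3.90 TPM (SD, n = 3) in siControl and 39.9 ± 0.531 TPM (SD, n = 3) in siDerl1 NSCs (difference −0.29). *Nubpl* and *Ndufaf6*, of complex I assembly, had differences of 0.41 each. All 3 had groups that did not overlap and the same adjusted p of 0.704 from limma. In that list the groups were apart for 2 genes with siDerl1 lower and for 5 with siDerl1 higher, beside 8.52% and 5.09% of all genes tested.

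**Figure D4:**
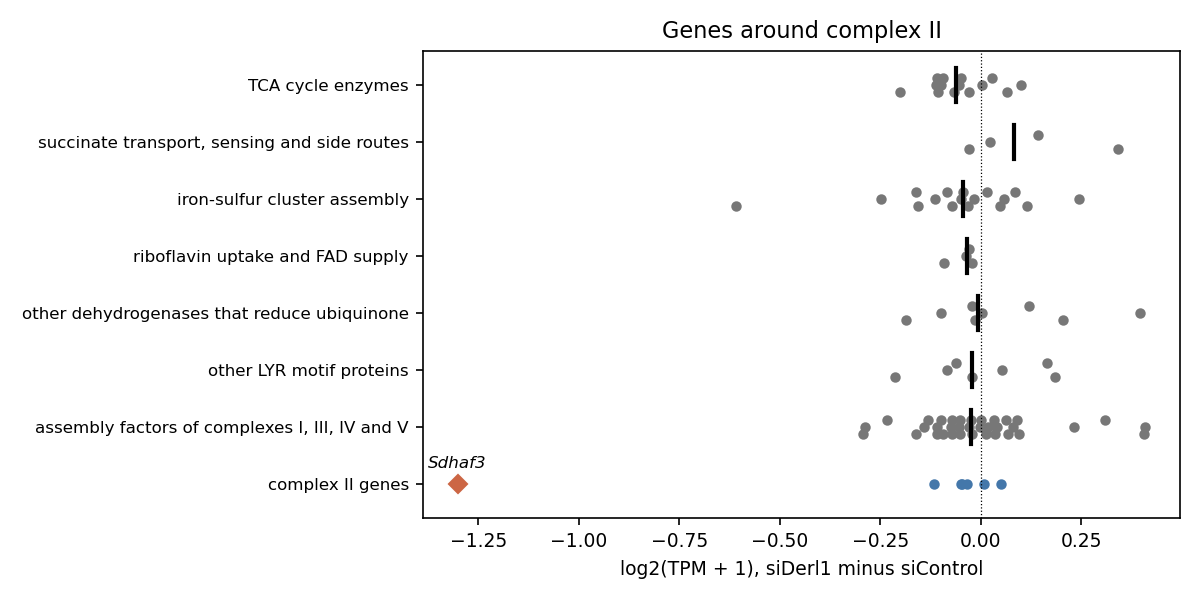
Difference in log2(TPM + 1), siDerl1 minus siControl, for each gene tested in the 7 lists around complex II (grey points, 89 genes, with the list median as a black bar) and for the complex II genes (blue, and *Sdhaf3* as an orange diamond). The listed genes lie between −0.61 and 0.41, and *Sdhaf3*, which was chosen for its difference, lies at −1.30.

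The genes most like *Sdhaf3* in their pattern were sought over the 6 samples, as those with the smallest root mean square difference between log2(TPM + 1) values that had been centred on each gene's mean. Among the 10324 other genes tested, the nearest was *Derl1*, the target of the siRNA, with 0.19. The next 4 were *Akr1b8* (0.21), *Slc25a53* (0.22), *A3galt2* (0.27) and *Hist1h2af* (0.27). *Akr1b8*, an aldo-keto reductase gene, was at 3.58, 5.03 and 4.10 TPM in siControl and at 1.12, 1.95 and 2.14 TPM in siDerl1 samples 1, 2 and 3. *Slc25a53*, of the mitochondrial carrier family, was at 10.3, 8.36 and 10.2 TPM in siControl and at 2.67, 3.82 and 4.27 TPM in siDerl1 samples. All 5 were lower in siDerl1 NSCs, with differences between −1.22 and −0.94, which follows from the choice of *Sdhaf3* for the same difference. The other complex II genes were farther away, between 0.62 for *Sdhc* and 0.71 for *Sdhb*. *Hist1h2af* belongs to a family of nearly identical histone genes, and its value is uncertain.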

How the data were processed

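RNA-seq of adult rat hippocampal NSCs was read for 3 siControl and 3 siDerl1 samples, grouped and numbered by their labels. Per the labels and the methods, the authors made strand-specific poly(A) libraries, used Trimmomatic (0.39) for trimming, STAR (2.7.3a) for alignment to rn6 and RSEM (1.3.2) for quantification. They deposited TPM, rounded to 2 decimals, with the same total in each sample. TPM keep no read counts, so depth and counting error are unknown, and RSEM may split reads between near-identical copies. Their own tests with edgeR (3.28.1) used values not used here.

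Values were set on log2(TPM + 1), which understates changes of low genes, and genes with a mean of at least 1 TPM were tested with limma (3.58.1, R 4.3.3; lmFit and eBayes with an intensity trend) and Benjamini-Hochberg adjustment over the 10331 genes. The fit was tested on simulated data with independent samples, without the shift that the samples numbered 1 share. That test therefore does not bear on how many genes are called in these data. Samples of the same number were taken as pairs because their deviations from the group means correlated at 0.70, 0.35 and 0.51, over genes, and because the labels number them alike. Samples of unlike number were not correlated. Samples 2 and 3 of both groups lay on the same side of the first principal component. The correlations therefore cannot show that sample 2 belongs with sample 2 and sample 3 with sample 3. Alternatives tried comprised a pseudocount of 0.1, no filter, a mean of at least 5 TPM, median-of-ratios scaling, no trend, the replicate block and each sample left out, and, added after the data were seen, 3 further settings with the block and both samples numbered 1 left out. Genes missing under their symbol were matched by older symbols or RefSeq identifiers. The genes named are the complex II genes, *Derl1*, the 3 members of each list with the smallest p (none passed the test), and the 5 genes most like *Sdhaf3*. Others, such as *Sucnr1*, marker genes and genes counted as apart, were named after their values were seen. One gene was left out of the marker lists and is not reported here, and the other markers are given by their sums and a few examples. The complex II genes and the lists were chosen with earlier results of these data known.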

Additional observations from a re-analysis of the deposited data

How the results depend on the processing

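The differences of the 7 complex II genes kept their direction under all 16 alternatives, except that of *Sdha*, which was 0.0073 with all samples, between −0.0047 (without siControl replicate 1) and 0.0215 with 1 sample left out, and −0.0088 without both samples numbered 1. *Sdhaf3* stayed between −1.48 and −1.15 on the log2 scale, and between −1.44 and −1.15 with 1 sample left out. Those of *Sdhc* lay between −0.14 and −0.10, with adjusted p values from 0.295 to 0.996. With 1 sample left out, the small differences of *Sdhd* (between −0.06 and −0.01), *Sdhaf1* (between −0.07 and −0.03) and *Sdhaf2* (between −0.07 and −0.02) moved by over 1.5 times without turning. No complex II gene other than *Sdhaf3*, and no gene of the 7 lists, was called at an adjusted p under 0.05 in any of these fits. The number of all genes called did depend on the setting. It was 0 with the settings used, 57 with the replicate block, 54 with the replicate block and a pseudocount of 0.1, 2 with the block and no filter, 0 with the block and no trend, and 35 without both samples numbered 1. Leaving out any 1 sample gave 0. The cause was not tested. The paired fit (replicate block) changed no call among the 6 tested complex II genes. TPM keep no depth, so how firmly the low values of *Sdhaf3* are known beyond the spread between samples cannot be said.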
